A study of Mus musculus with 9 samples.

Results

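The cytosolic ribosomal protein genes are the genes for the proteins of the large and small ribosomal subunits. Members were taken by symbol: *Rpl* or *Rps* followed by a digit, plus *Rplp0*, *Rplp1*, *Rplp2* and *Rpsa*, leaving out names with -ps, the *Rps6k* kinases and the *Rps19bp* genes. This gave 86 of the 24054 genes listed, namely 49 proteins of the large subunit, 34 of the small subunit and 3 of the stalk, the arm of the large subunit that recruits translation factors. The data are 9 RNA-seq libraries, made from type 2 dendritic cells of the spleen of C57BL/6 mice with the genotype *Clec9a-Cre/Cre Rosa-tdTomato/tdTomato*, and each of the 3 groups has 3 libraries. These groups were TOM+ cDC2 and TOM- DC2 of postnatal day 8 and TOM+ cDC2 of adult mice aged 8 or 9 weeks. All groups are homozygous for both alleles, and TOMATO marks cells with a history of Cre expression from the *Clec9a* locus. Cells were sorted as live, single, autofluorescence-negative MHCII+ CD11c+ CD11b+ cells, and spleens of young mice were pooled. Nothing in the labels ties libraries to separate litters or cultures, so p-values measure the spread between these libraries. Libraries are named by the number in their deposited names, which is 81, 91 or 92 in both young groups and 91, 92 or 95 in adults.

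Most ribosomal proteins are present once in each ribosome, and a cell that grows and divides must make all of them together. In mammals most of their mRNAs begin with a 5′ terminal oligopyrimidine (TOP) tract, a C followed by a run of pyrimidines, through which mTORC1 and the LARP1 protein control their translation. These short, abundant mRNAs have also been copied back into the genome many times, so that intron-less processed pseudogenes outnumber the genes themselves. A short read from such a gene often matches a pseudogene equally well.

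The gene counts came to between 12783252 and 22809401 reads per library. Each of the 9 listed markers of cDC2 reached 1 TPM (RSEM's length-corrected share of all transcripts) in at least 1 library, and their sum was 13234 to 14342 TPM in young and 20837 to 21203 TPM in adult libraries. Such sums can hide markers that move the other way. By edgeR on STAR counts (padj under 0.05), 2 cDC2 markers were higher and 6 lower in each young group against adults. Of the macrophage markers 1 was higher and 1 lower in young TOM+ cells, and 2 were higher in TOM- DC2. Over all genes 21.0% were higher and 19.5% lower in TOM+ cells, and 19.4% and 16.9% in TOM- DC2. The summed markers of several other cell types differed between young and adult libraries without overlap. In young TOM+, young TOM- and adult libraries, 4 B cell markers summed to 2.35 to 3.37, 7.22 to 12.5 and 15.7 to 22.9 TPM, 4 plasmacytoid DC markers to 102 to 108, 108 to 114 and 122 to 164 TPM, 4 monocyte markers to 262 to 290, 206 to 251 and 179 to 203 TPM, and 3 macrophage markers to 75.7 to 90.5, 102 to 142 and 57.6 to 67.1 TPM. Over all libraries 3 T cell markers summed to 0.31 to 5.24, 4 cDC1 markers to 5.93 to 7.80 and 3 neutrophil markers to 0.05 to 13.8 TPM. Markers of type 3 innate lymphoid cells summed to 23.8 to 32.3 TPM in TOM- libraries and to 2.96 to 4.96 TPM in the others. *Pax5* of B cells, *Clec9a* of cDC1, *Mpo* of neutrophils, and *Thy1* and *Il23r* of the lymphoid list stayed under 1 TPM in every library. The summed level of 4 erythroid markers was 0.58 to 39.5 TPM in young TOM+, 15.3 to 643 TPM in young TOM- and 1.3 to 12.3 TPM in adult libraries. Young TOM+ and adult libraries thus overlapped. The part of these markers in the results was not tested.

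The members took a larger share of the transcriptome in dendritic cells of young mice than in those of adults. They made up 6.12% ± 0.129 of all TPM (SD, n = 3) in young TOM+ cDC2, 6.13% ± 0.197 in young TOM- DC2 and 4.83% ± 0.254 in adult TOM+ cDC2. Every young library, from 5.90% to 6.26%, lay above every adult library, from 4.54% to 4.98%, and the young groups overlapped. Proteins of both subunits shared this order. Small subunit members summed to 2.72% ± 0.0795, 2.74% ± 0.111 and 2.16% ± 0.127 of TPM, and large subunit members, stalk included, to 3.40% ± 0.0496, 3.38% ± 0.0891 and 2.68% ± 0.128. These are shares of library totals, without TMM scaling, on which genes at large were also higher in young cells. With library sizes alone the median log2FC in young over adult TOM+ cells on STAR counts was 0.25 over all genes and 0.40 over the members. In TPM, every young TOM+ library lay above every adult library for 34.7% of all genes tested. In bulk samples fewer cells of a type and less RNA per cell cannot be told apart.

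**Figure D1:**
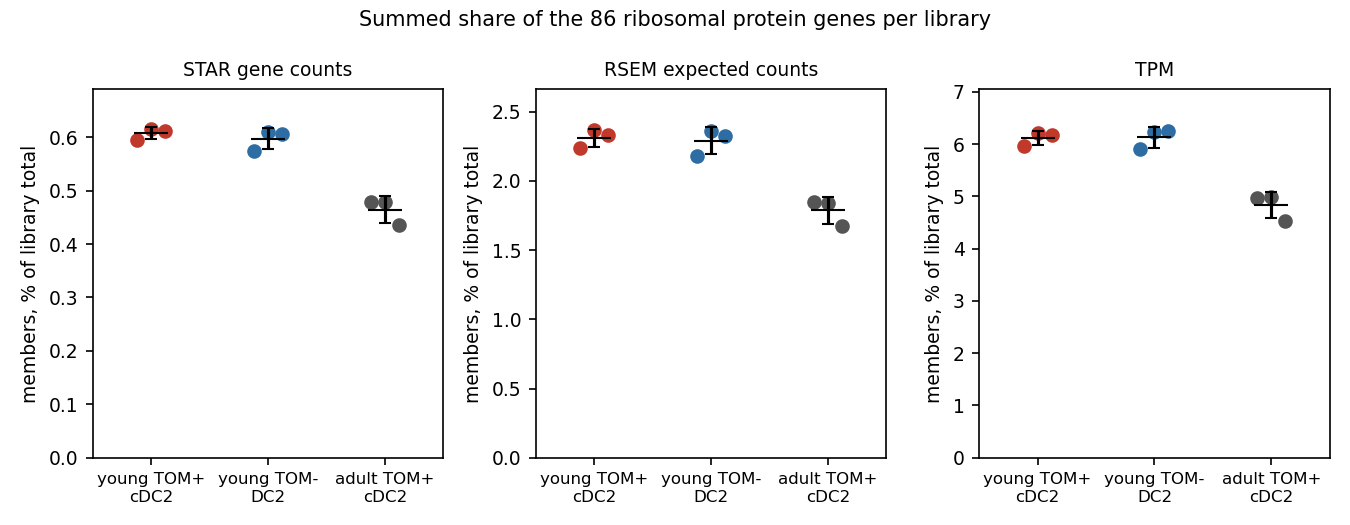
Summed share of the 86 members in each library (dots; bar, mean ± SD of 3 libraries), as a percentage of STAR gene counts, of RSEM expected counts and of TPM. The 6 young libraries lie above the 3 adult libraries on each scale, and the share of STAR counts, at most 0.616%, is far below the share of RSEM expected counts, at most 2.36%. All scales are shares of library totals, without TMM.

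The deposited files count these genes in 2 ways that disagree strongly. STAR counted reads with 1 place in the genome and left out those with several, whereas RSEM divided reads among the transcripts they match. Over all members and libraries STAR counted 23.4% of the expected count that RSEM gave, against 89.5% over all genes. This share was nearly the same in every library, 22.9% to 23.8%. Among the 83 members with a mean expected count of at least 50 the share ran from 0.0% to 104%, with a median of 12.3%, while the median of 10207 other genes at that level was 103%. STAR counted under 10% of the expected count for 40 of these members, 10% to 50% for 30, and over 50% for 13. The lowest 5 shares were those of *Rps27rt* at 0.0%, *Rpl26* at 0.16%, *Rpl23a* at 0.25%, *Rpl5* at 0.28% and *Rps23* at 0.31%.

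The share counted went with how much coding sequence a member has in common with other genes. Each member's coding sequence in GENCODE M21 (GRCm38, the assembly of mm10) was divided into overlapping windows of 50 bases, the read length, and each window was searched for exactly, on both strands, in the annotated transcripts of every other gene. Of 85 members with an annotated coding range, 32 had every window in another gene and 3 had none. A median of 8 annotated pseudogenes, and at most 121 (*Rpl7a*), shared a window with a member. STAR counted a median of 1.40% of the expected count (0.0% to 19.0%) for the 32 members with no window of their own. For the 12 members with under 50% of windows shared it counted 38.1% to 104%. Across 82 members Spearman's rho between both measures was -0.868, a description across genes that share libraries. There were exceptions: STAR counted 60.5% for *Rpl13a*, with 97.5% of windows shared, and 68.6% for *Rps2*, with 84.1%. The other genes are not all pseudogenes, and only 38.8% of the *Rpl13a* windows were found in a pseudogene. The following coding windows show both ends, with the first 3 shared and the last found in no other gene, and no base is set in capitals because the whole window is what matters.
Rps23: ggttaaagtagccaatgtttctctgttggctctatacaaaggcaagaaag
Rpl10: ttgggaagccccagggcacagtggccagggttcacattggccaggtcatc
Rps12: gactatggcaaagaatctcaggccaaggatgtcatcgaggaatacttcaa
Rpl8: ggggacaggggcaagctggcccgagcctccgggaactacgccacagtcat
The *Rps23* window lies at chr13:90924617-90924666 on the plus strand and is found in 9 pseudogenes. The *Rpl10* window lies at chrX:74272698-74272747 on the plus strand and is found in 9 pseudogenes, and the *Rps12* window at chr10:23785224-23785273 on the minus strand is found in 20. The *Rpl8* window lies at chr15:76904898-76904947 on the plus strand. All 4 are exonic and coding.

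**Figure D2:**
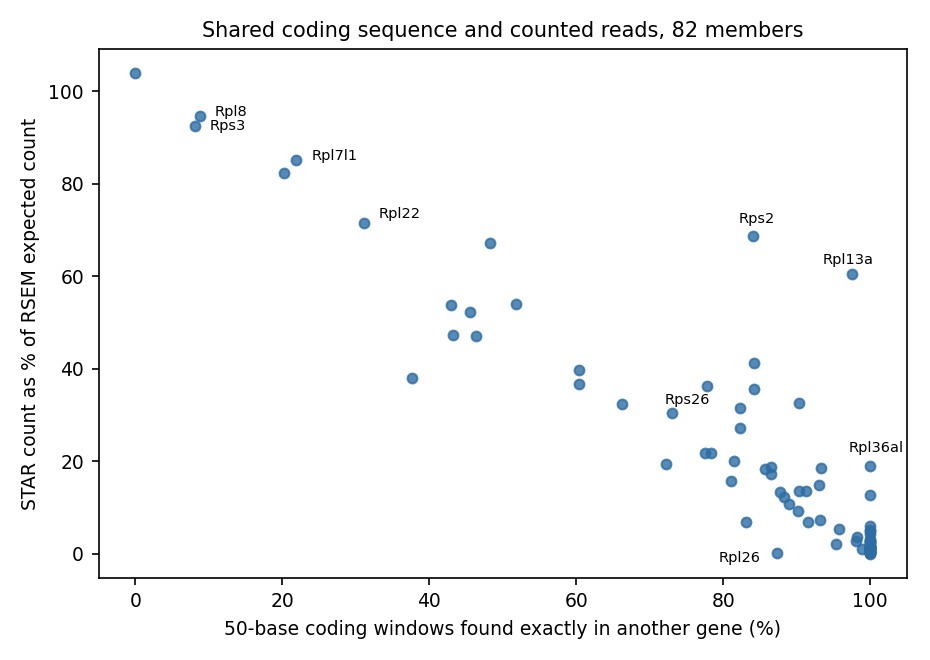
STAR count as a percentage of RSEM expected count (vertical axis, all libraries summed) against the percentage of 50-base coding windows found exactly in another gene (horizontal axis), 1 dot for each of 82 members with a mean expected count of at least 50. *Rpl8*, with 8.73% of windows shared, is at 94.8%, and the 32 members at the right edge lie between 0.0% and 19.0%.

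Because of this, each comparison is given on both kinds of count. Differences were tested with edgeR's quasi-likelihood test with TMM normalization over every gene whose counts averaged 1 or more, followed by Benjamini-Hochberg adjustment, and a gene passed at padj under 0.05. On STAR counts 83 members were tested. *Rpl10l*, a testis paralog of *Rpl10*, had 0 counts in all 9 libraries, which allows up to 3 counts in each. *Rpl26* and *Rps27rt* were too rarely counted by STAR, and both were tested on RSEM expected counts, where 85 members were tested.

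Young TOM+ cDC2 against adult TOM+ cDC2 asks how these transcripts change with age within a population of the same labelled history. On STAR counts, 18 of 83 members were higher in young cells (all genes tested, 21.0%) and 2 lower (all genes tested, 19.5%), so that members rose about as often as genes at large. The count of higher members fell to 11 on dropping young TOM+ library 91, young TOM+ library 92 or adult library 95, and the count of lower members to 1 without young TOM+ library 81 or 91, TOM- library 91 or any 1 adult library. On RSEM expected counts, 40 of 85 members rose (all genes, 20.0%) and 0 fell (all genes, 20.7%). Without young TOM+ library 91 these were 22 and 1, without young TOM+ library 92 there were 26 higher, and without adult library 95 there were 24 higher and 2 lower. The median log2FC of the members was 0.20 on STAR counts, with 0.05 over all genes, and 0.24 on RSEM expected counts, with 0.02 over all genes. Of the 85 members, 77 had a log2FC above 0 on RSEM counts. By subunit, 24 of 48 large subunit members, 16 of 34 small subunit members and 0 of 3 stalk members rose on RSEM counts. On STAR counts these were 8 of 47 (17.0%), 10 of 33 (30.3%) and 0 of 3. Changes were small: no member on either count reached the study's call of a log2FC beyond 1 with padj under 0.05, which 12.8% of all genes tested reached on STAR counts. On the TPM scale, all 3 young TOM+ libraries lay above all 3 adult libraries for 73 of the 86 members, as they did for 34.7% of all genes tested.

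Young TOM- DC2 against adult TOM+ cDC2 uses the same adult libraries. On STAR counts, 13 members were higher in young cells (all genes, 19.4%) and 1 lower (all genes, 16.9%). Leaving out young TOM+ library 92 gave 8 higher, TOM- library 91 or TOM- library 92 gave 6, and adult library 95 gave 7. The lower count was 0 once TOM- library 91 or 92 or adult library 91 or 92 was left out. On RSEM expected counts, 29 rose (all genes, 18.4%) and 0 fell (all genes, 18.1%), against 13 higher when either TOM- library 91 or TOM- library 92 was dropped, and 11 higher with 2 lower when adult library 95 was. The median log2FC was 0.16 on STAR counts, with 0.07 over all genes, and 0.20 on RSEM expected counts, with 0.04 over all genes. Of all genes 11.3% reached the study's call, and 0 members did. TPM of all 3 TOM- libraries lay above all 3 adult libraries for 69 members, as for 36.4% of all genes.

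The scaling and the length of the transcripts both moved these values. TMM factors were 1.025 to 1.085 in young and 0.894 to 0.928 in adult libraries. With library sizes alone, the median of all genes in the comparison of TOM+ cells moved from 0.05 to 0.25 (4790 genes higher and 1828 lower, against 3039 and 2822), and that of the members to 0.40, so that the members stood 0.16 above all genes against 0.15 with TMM. In the TOM- comparison library sizes alone gave 5010 genes higher and 1468 lower, against 2809 and 2438. limma on log2(TPM + 1) gave 4074 genes higher and 1973 lower in TOM+ cells and 4318 and 1597 in TOM- DC2. Members are short, and removing each library's trend of level over transcript length left 10 members higher and 4 lower on STAR counts and 20 higher and 3 lower on RSEM counts. All genes then gave 2852 higher and 3001 lower on STAR counts and 2851 and 3023 on RSEM counts. In the TOM- comparison the same step left 5 members higher and 6 lower on STAR counts with a median of -0.011. On RSEM counts it left 8 higher and 7 lower with a median of 0.028, beside all-gene medians of -0.04 on both counts. All genes there gave 2120 higher and 3250 lower on STAR counts and 2107 and 3264 on RSEM counts. The share of reads outside genes was 15.2% to 17.1% in adult and 8.84% to 12.8% in young libraries, and its part in the result was not tested.

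**Figure D3:**
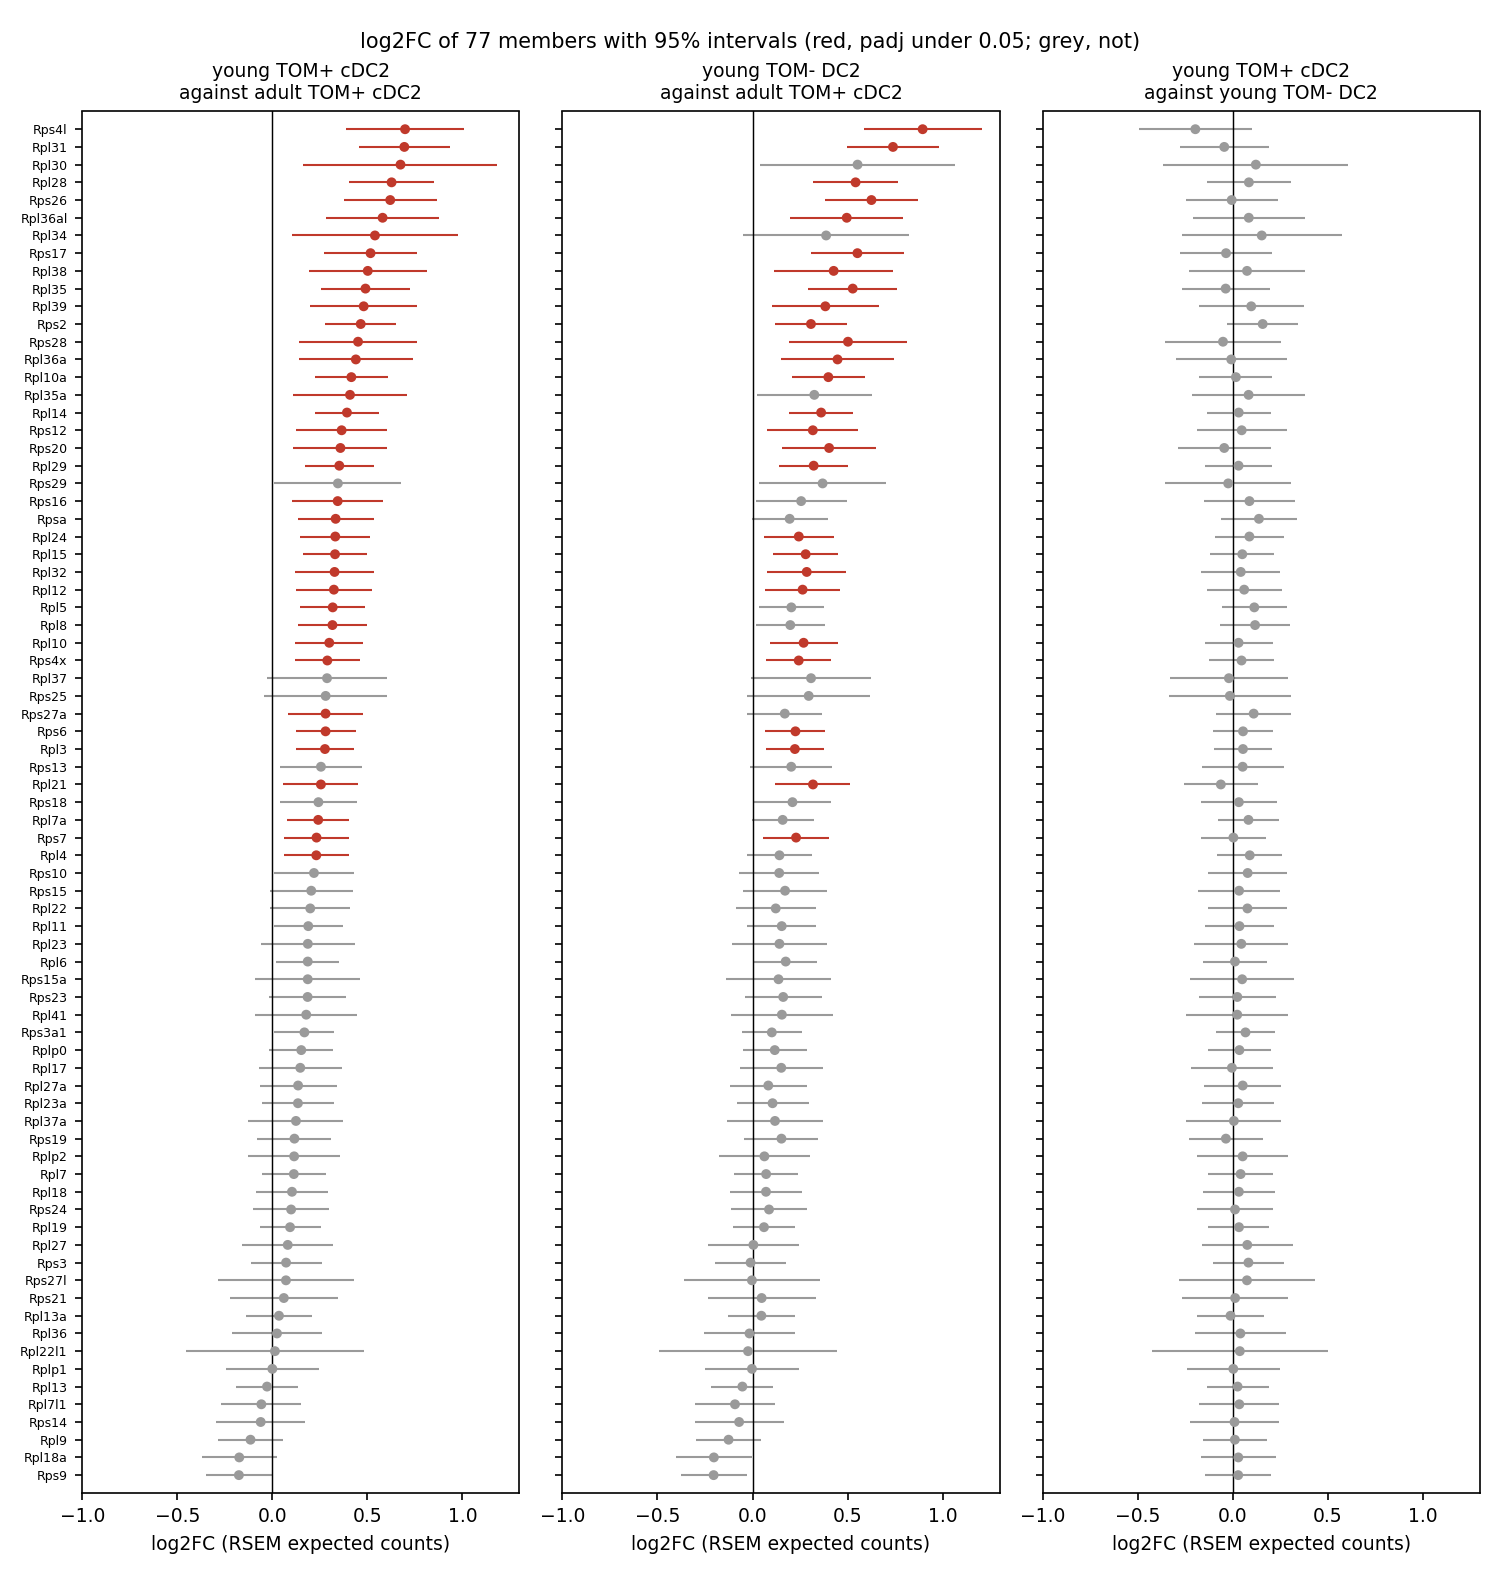
log2FC on RSEM expected counts of 77 members in the 3 comparisons (dots, fitted value; lines, 95% interval), ordered by the first; red members have padj under 0.05. *Rps27*, *Rps27rt* and *Rpl26* are left out because their intervals run far past the axis, as are 3 members with a mean expected count under 50 and 3 that are not reported singly. In both comparisons with adults the members lie mostly to the right of 0 and none of the red ones to the left, and between the young groups no member is red.

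Among members higher in young TOM+ cells on STAR counts, with an average count of at least 50 and groups that did not overlap, the largest log2FC were those of *Rps4l*, *Rps26*, *Rpl39*, *Rpl36al* and *Rpl35*. *Rps26* encodes a small subunit protein at the mRNA exit channel. Its level was 752, 823 and 787 TPM in young TOM+ libraries 81, 91 and 92, 735, 833 and 851 TPM in young TOM- libraries 81, 91 and 92, and 493, 473 and 412 TPM in adult libraries 91, 92 and 95. All 6 young libraries lay well above the 3 adult libraries and the young groups overlapped. Its log2FC in young over adult TOM+ cells was 0.64 ± 0.11 (SE; edgeR, padj 0.00063) on STAR counts and 0.62 ± 0.11 (padj 0.00096) on RSEM counts, and 0.63 (padj 0.00085) and 0.63 (padj 0.0011) in TOM- DC2 over adults.

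*Rpl35* encodes a large subunit protein near the exit of the nascent chain. Of its coding windows 91.6% are found in another gene, and STAR counted 6.91% of its expected count. *Rpl35* measured 1595, 1716 and 1836 TPM in young TOM+, 1695, 1921 and 1781 TPM in young TOM-, and 1174, 1081 and 1031 TPM in adult libraries, again without overlap between ages. It rose by 0.48 ± 0.13 (edgeR, padj 0.0098) on STAR counts and by 0.49 ± 0.11 (padj 0.0032) on RSEM counts in TOM+ cells. *Rpl14*, another large subunit protein, was chosen after its values were seen, with 564, 539.6 and 585 TPM in young TOM+, 561, 539.6 and 588 TPM in young TOM-, and 379.7, 384 and 389 TPM in adult libraries. It rose by 0.43 ± 0.084 (padj 0.0014) on STAR counts and 0.39 ± 0.077 (padj 0.0017) on RSEM counts in TOM+ cells, both by edgeR. *Rps4l*, *Rps26*, *Rpl35*, *Rps20* and *Rpl14* passed in the same direction in both comparisons with adults under all 21 alternative settings run on them.

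*Rpl8* encodes a large subunit protein near the catalytic centre. Only 8.73% of its coding windows are found in another gene, and STAR counted 94.8% of its expected count. It measured 699, 663 and 707 TPM in young TOM+ libraries, 653, 610 and 687 TPM in young TOM- libraries, and 471, 530 and 488 TPM in adult libraries. The ages did not overlap. *Rpl8* rose by 0.35 ± 0.087 (edgeR, padj 0.0068) on STAR counts and by 0.32 ± 0.084 (padj 0.010) on RSEM counts in TOM+ cells, and had 0.24 (padj 0.0504) and 0.20 (padj 0.084) in TOM- DC2, which did not pass. *Rps2*, of the small subunit, went from 146 ± 9.39 TPM in adults (SD, n = 3) to 226 ± 3.09 in young TOM+ and 206 ± 6.52 in young TOM- cells, with a log2FC of 0.47 ± 0.088 (padj 0.0011) on STAR counts in TOM+ cells.

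*Rps20*, *Rps3a1*, *Rpl32*, *Rpl4* and *Rpl3* also passed on STAR counts in TOM+ cells, with log2FC from 0.23 (*Rpl3*, padj 0.042) to 0.47 (*Rps20*, padj 0.0093), and all but *Rps3a1* passed on RSEM counts, where *Rps3a1* had 0.17 (padj 0.083). In TOM- DC2, *Rps20* at 0.51 (padj 0.0069) and *Rpl32* at 0.29 (padj 0.038) passed on STAR counts, while *Rpl3*, *Rpl4* and *Rps3a1* did not, with padj from 0.12 to 0.23.

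**Figure D4:**
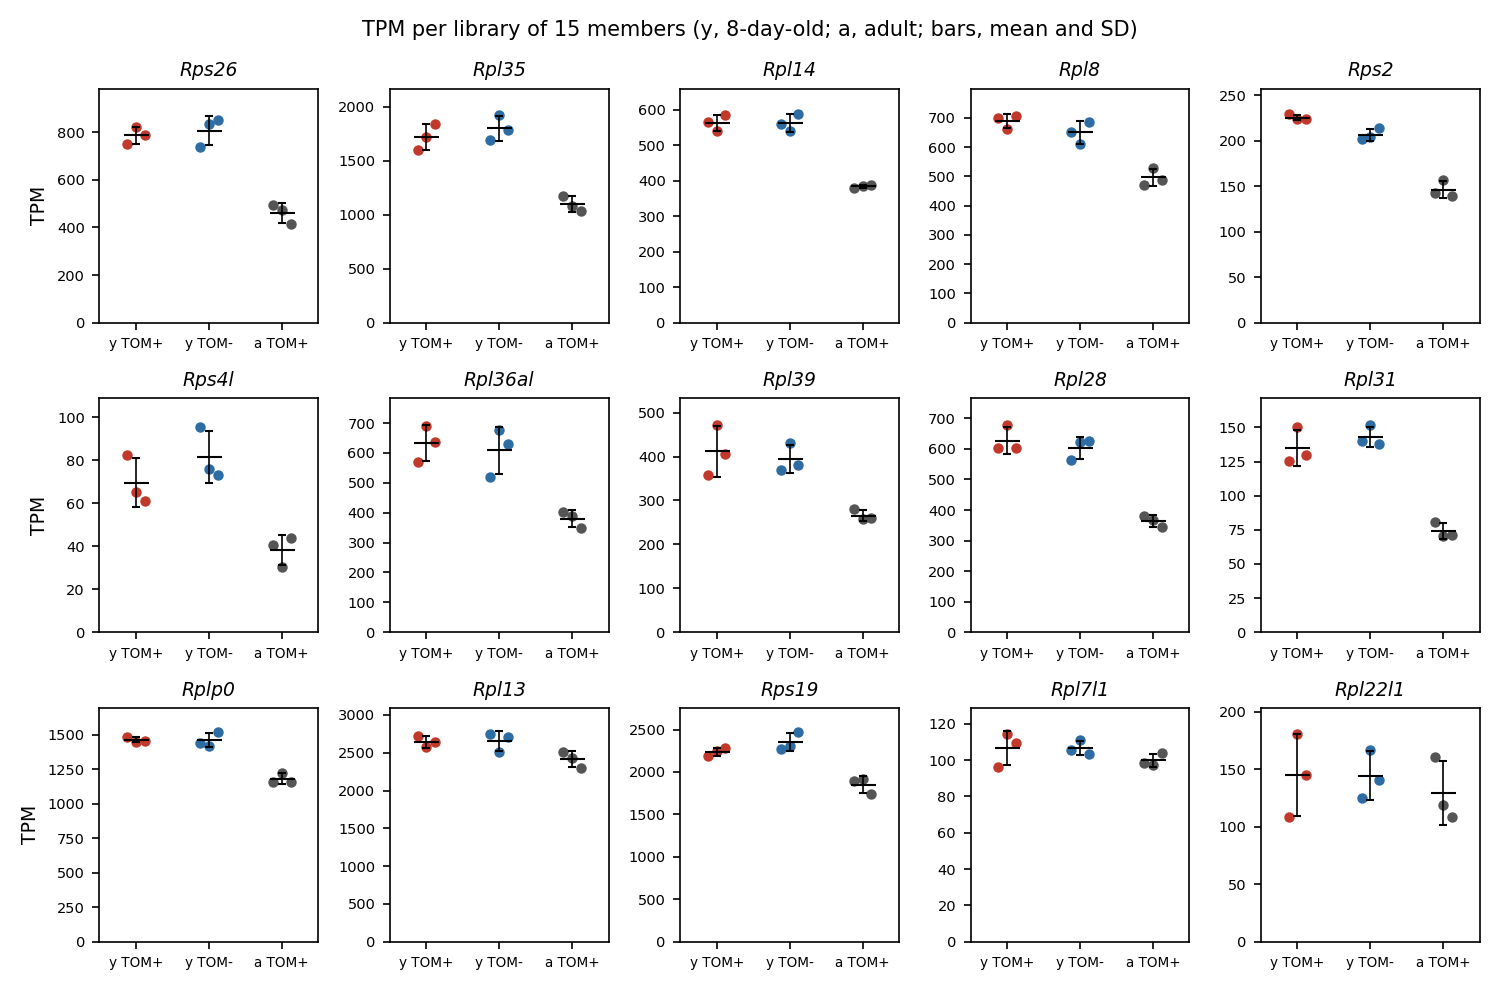
TPM of 15 members in each library (dots; bar, mean ± SD of 3 libraries), with each vertical axis starting at 0. The first 10 members separate all young from all adult libraries, as in *Rpl14* with 539.6 TPM or more against 389 TPM or less, and *Rpl7l1* and *Rpl22l1* show overlapping groups.

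For 2 members, whose shared windows are printed above, STAR and RSEM gave opposite answers, each past the threshold. *Rpl10* encodes a late-joining protein of the large subunit. STAR counted 2.37% of its expected count, as 204, 149 and 199 reads in young TOM+, 181, 178 and 234 in young TOM- and 203, 183 and 189 in adult libraries, and it was lower in young TOM+ cells by a log2FC of -0.65 ± 0.15 (edgeR, padj 0.0046) and in TOM- DC2 by -0.48 (padj 0.025). On RSEM counts it was higher, by 0.30 ± 0.082 (padj 0.012) and 0.27 (padj 0.023), and its TPM was 1141 to 1222 in young TOM+ and 821 to 889 in adult libraries. *Rps12* of the small subunit, with a mean count under 50 and so outside the rule for named genes, had 15, 11 and 19 STAR reads in young TOM+ and 19, 19 and 21 in adult libraries. It was lower in young TOM+ cells on STAR counts, by -0.97 ± 0.34 (padj 0.039), and higher on RSEM counts, by 0.36 ± 0.11 (padj 0.019). In the TOM+ comparison *Rpl10* and *Rps12* were the only members that passed as lower in young cells on STAR counts, among 25 with a log2FC under 0. STAR read under 3% of the expected count of either.

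Members that STAR nearly missed held many of the RSEM calls. Over all genes tested, 20.0% were higher in young TOM+ cells on RSEM counts and 21.0% on STAR counts, and each class below is read beside these shares. Of the 40 members of which STAR counted under 10%, RSEM counts gave 23 as higher in young TOM+ cells, with a median log2FC of 0.28. STAR counts gave 3 of 38, with a median of -0.05. For 30 members between 10% and 50% the numbers were 12 on RSEM and 10 on STAR counts, with medians of 0.21 and 0.23. For the 13 members over 50% both counts gave 5, with medians of 0.07 and 0.11, close to the 0.02 and 0.05 of all genes. Median transcript length in these 3 classes was 682, 596 and 941 bases, and the part of length or of shared reads in the order of the medians was not tested. *Rpl31* and *Rpl28*, both of the large subunit and named after their values were seen, had the lowest padj of the members on RSEM counts: *Rpl31* was at 135 ± 13.4 TPM in young TOM+ and 74.1 ± 5.55 in adult cells (log2FC 0.69 ± 0.11, edgeR padj 0.00038), and *Rpl28* at 627 ± 44.5 and 364 ± 18.8 TPM (0.63 ± 0.10, padj 0.00047). On STAR counts, with 28 to 70 and 24 to 41 reads per library of these groups, they had log2FC of 0.27 (padj 0.40) and -0.15 (padj 0.69). Over 81 members in both tests, 21 changed sign between the counts in TOM+ cells and 15 in the TOM- comparison, and 16 and 12 passed as higher on both. The share of all genes that passed as higher on both counts was not computed. In the TOM- comparison 18.4% of all genes were higher on RSEM counts and 19.4% on STAR counts.

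**Figure D5:**
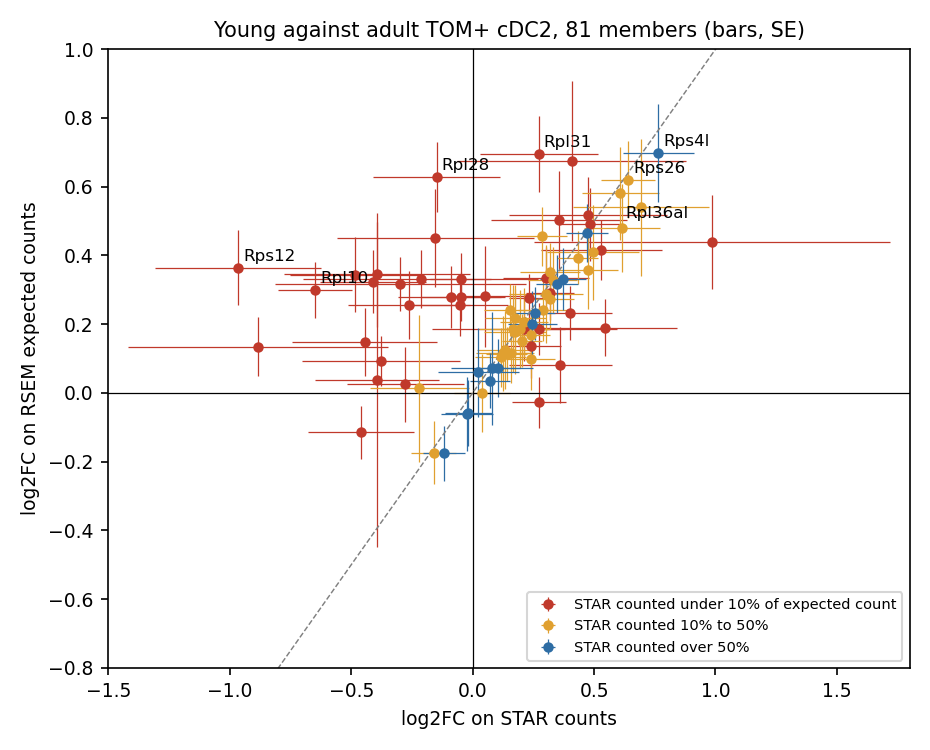
log2FC of 81 members in young over adult TOM+ cDC2 on RSEM expected counts (vertical) against STAR counts (horizontal), bars giving SE, coloured by the share of the expected count that STAR counted; the dashed line marks equal values. Members over 10% lie near the line and those under 10% scatter to both sides, with *Rpl10* at -0.65 and 0.30 and *Rps12* at -0.97 and 0.36.

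Young TOM+ cDC2 against young TOM- DC2 asks whether cells with and without the *Clec9a* label differ. By edgeR, 0 members passed in either direction on STAR counts (all genes, 0.125% higher and 1.47% lower) and 0 on RSEM expected counts (all genes, 0.124% and 1.38%). 0 of 83 had an unadjusted p under 0.05 on STAR counts and 0 of 85 on RSEM counts. DESeq2 on either count and limma on TPM also passed 0. With the library number as a block, which matches same-numbered young libraries, 0 members passed on either count. Of all genes 322 were then higher and 627 lower on STAR counts, against 18 and 213 without the block. On RSEM counts these were 290 and 573, against 18 and 200. Under the block 3 members on STAR and 7 on RSEM counts had an unadjusted p under 0.05. The study's call was reached by 1.18% of all genes and by 0 members. The median log2FC of the members was 0.02 on STAR and 0.04 on RSEM counts. On RSEM counts the 95% interval of the difference stayed within 0.5 log2 units on either side of 0 for 78 of 83 members with a mean expected count of at least 50, with a median SE of 0.095. On STAR counts it did so for 53 of 65 members with a mean count of at least 50, with a median SE of 0.119. The RSEM intervals take the divided reads as counted, so uncertainty in the division is not in them.

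None of the stalk genes passed. *Rplp0*, *Rplp1* and *Rplp2* encode the P0 base and the P1 and P2 arms of the stalk, and STAR counted 32.4% to 39.7% of their expected counts. *Rplp0* measured 1466 ± 18.5 TPM in young TOM+, 1463 ± 53.1 in young TOM- and 1182 ± 39.0 in adult cells (SD, n = 3), *Rplp1* 930.2 ± 46.3, 947 ± 93.1 and 834 ± 60.5, and *Rplp2* 1064 ± 44.8, 1047 ± 88.3 and 881 ± 70.9. Their log2FC in young over adult TOM+ cells was 0.20 ± 0.083 (edgeR, padj 0.071), 0.04 ± 0.12 (padj 0.83) and 0.12 ± 0.11 (padj 0.41) on STAR counts and 0.15, 0.00 and 0.11 on RSEM counts. In level, the highest members were *Rpl13* at 2414 ± 108 to 2658 ± 129 TPM by group, *Rps19* at 1852 to 2347 and *Rpl32* at 1607 to 2251. Of these, *Rpl32* rose by 0.33 ± 0.10 on STAR and 0.33 on RSEM counts (padj 0.020 and 0.017) in TOM+ cells, while *Rpl13* (0.27, padj 0.069 on STAR and -0.03, padj 0.80 on RSEM counts) and *Rps19* (0.16, padj 0.21 and 0.12, padj 0.32) did not pass.

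Several members are paralogs, alternative copies of another ribosomal protein gene. *Rps4l* rose most of all members that passed. RefSeq lists it as a transcribed pseudogene of the *Rps4x* family at chr6:148354656-148355596 (GRCm38.p6), the only one among the 86 members not listed as protein coding. STAR counted 683, 499 and 543 reads in young TOM+, 602, 533 and 761 in young TOM- and 233, 160 and 300 in adult libraries, 83.6% of its expected count. Its level was 82.5, 65.4 and 60.9 TPM in young TOM+, 95.7, 76.1 and 73.3 TPM in young TOM-, and 40.8, 30.2 and 43.8 TPM in adult libraries, with no overlap between ages. Its log2FC was 0.77 ± 0.15 (edgeR, padj 0.0013) in TOM+ cells and 0.96 ± 0.15 (padj 0.00032) in TOM- DC2 on STAR counts, and 0.70 and 0.90 on RSEM counts. *Rps4x*, the X-linked gene of that family, was at 621 ± 10.8, 615 ± 20.5 and 455 ± 11.7 TPM and rose by 0.32 (padj 0.023) and 0.35 (padj 0.016) on STAR counts.

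*Rpl36al* and *Rpl39*, of the large subunit, belong to pairs with near-copies. *Rpl36al* measured 569, 691 and 637 TPM in young TOM+, 521, 675 and 629 in young TOM- and 402, 390 and 348 in adult libraries, and rose by 0.61 ± 0.16 (edgeR, padj 0.0093) in TOM+ cells and by 0.45 ± 0.16 (padj 0.046) in TOM- DC2 on STAR counts. Its partner *Rpl36a*, with 87.7% of coding bases identical, had 1 to 12 STAR reads per library, and on RSEM counts rose by 0.44 ± 0.14 (padj 0.023) from 162 ± 19.7 TPM in adult to 246 ± 12.6 in young TOM+ cells. How reads divide between these partners is uncertain. *Rpl39* measured 357, 473 and 406 TPM in young TOM+, 370, 431 and 381 in young TOM- and 280, 257 and 259 in adult libraries, and rose by 0.61 ± 0.16 (padj 0.0077) and 0.43 ± 0.16 (padj 0.049). *Rpl39l*, its partner known from testis, with 85.0% identity and no window shared with another gene, had 17, 10 and 11 STAR reads in young TOM+, 12, 5 and 18 in young TOM- and 5, 1 and 0 in adult libraries, and did not pass (log2FC 2.0 ± 0.82, padj 0.069, in TOM+ cells).

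*Rpl22*, *Rpl22l1*, *Rpl7*, *Rpl7l1*, *Rps27l* and *Rpl3l* did not pass on either count. *Rpl22* was at 68.0 ± 1.78 TPM in young TOM+, 65.7 ± 2.29 in young TOM- and 52.9 ± 5.13 in adult cells, and *Rpl22l1*, which can take its place in the ribosome, at 145 ± 35.9, 144 ± 21.2 and 129 ± 27.6. *Rpl7* was at 722 ± 32.3, 718 ± 26.0 and 597 ± 37.2 TPM and *Rpl7l1* at 107 ± 9.26, 107 ± 3.84 and 99.8 ± 3.56. *Rps27l*, a p53 target in mammals, was at 315 ± 48.9, 305 ± 57.2 and 269 ± 12.6 TPM. *Rpl3l*, the paralog of *Rpl3* in striated muscle, had 0 to 7 STAR reads in a library. With *Rpl10l* and *Rpl39l* it made up the 3 lowest members in TPM, all under 2 TPM in every library.

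*Rps27* and *Rps27rt* cannot be read separately in these files. All 252 coding bases are identical, as the same window of each shows.
Rps27: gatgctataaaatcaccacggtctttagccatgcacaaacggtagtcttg
Rps27rt: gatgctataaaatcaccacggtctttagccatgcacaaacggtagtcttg
The first lies at chr3:90212995-90213044 and the second at chr9:114982543-114982592 of GRCm38, both on the minus strand and exonic. STAR counted 0 reads for *Rps27rt* and 29 to 57 for *Rps27* in each library. RSEM gave *Rps27* 69.5%, 25.2% and 84.6% of their summed TPM in young TOM+ libraries 81, 91 and 92, 56.4%, 36.1% and 74.5% in young TOM- libraries 81, 91 and 92, and 15.8%, 75.0% and 45.4% in adult libraries 91, 92 and 95. In each group the library numbered 91 had the lowest share and that numbered 92 the highest, while the sum moved little, with 1556 ± 101 TPM in young TOM+, 1690 ± 152 in young TOM- and 1761 ± 112 in adult cells. The sum did not follow the order of the members as a whole: it was highest in adults, and the ages overlapped. *Rpl26*, of which STAR counted at most 1 read in a library, ranged from 0 to 28.9 TPM within young TOM+ libraries alone, and its differences were not readable.

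Symbols with -ps, which the members leave out, summed to the same age order in TPM. The 7 pseudogene symbols listed took 0.126% to 0.143% of TPM in young TOM+, 0.123% to 0.145% in young TOM- and 0.0952% to 0.105% in adult libraries. On RSEM counts 2 of the 7 passed as higher in young TOM+ cells (28.6%, all genes 20.0%), and on STAR counts 0 of 4 tested. *Rpl31-ps12* rose by 0.57 ± 0.092 (edgeR on RSEM counts, padj 0.00047) and *Rpl14-ps1* by 0.41 ± 0.086 (padj 0.0026) in young TOM+ cells, next to 0.69 for *Rpl31* and 0.39 for *Rpl14*. The smallest difference was that of *Rpl34-ps1*, at 0.09 ± 0.15 (padj 0.68). STAR counted 0 reads for *Rpl31-ps12* and a mean of 67.6 for *Rpl14-ps1*, whose expected counts averaged 797 and 2134.

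The start of the transcript is where a TOP tract lies. RefSeq promoters on GRCm38.p6 were matched for 65 members. A C at an annotated start followed by at least 4 pyrimidines was present at 1 or more starts of 14 members (21.5%), of 3.01% of all 27025 genes with a promoter and of 3.05% of 10695 genes tested. Within 5 bases of the start it was present in 30 members (46.2%), against 21.2% and 23.6%. The letters CCGGAAG, as bound by ETS factors, were found on either strand from 250 bases before to 50 after the start in 26 members (40.0%), against 9.93% of all and 18.6% of tested genes. GGGCGG, the core of a GC box, was found on either strand in 40 members (61.5%), against 38.2% and 65.8%. Neither string contains the other. Shown are members described above, with 25 bases before the annotated start and 15 from it, and where the annotated start is a C, that C and the pyrimidines that follow it are in capitals.
Rpl35: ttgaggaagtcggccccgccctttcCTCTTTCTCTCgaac
Rpl14: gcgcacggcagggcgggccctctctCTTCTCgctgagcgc
Rpl28: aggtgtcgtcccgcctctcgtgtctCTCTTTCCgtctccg
Rplp2: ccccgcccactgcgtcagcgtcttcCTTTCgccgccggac
Rps26: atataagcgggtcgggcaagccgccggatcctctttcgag
Rpl13: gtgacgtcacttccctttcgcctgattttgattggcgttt
These lie at chr2:39005117-39005156 on the minus strand (*Rpl35*), chr9:120571492-120571531 (*Rpl14*), chr7:4792940-4792979 (*Rpl28*) and chr7:141447626-141447665 (*Rplp2*) on the plus strand, chr10:128626492-128626531 on the minus strand (*Rps26*) and chr8:123102325-123102364 on the plus strand (*Rpl13*). *Rps26* and *Rpl13* have no C at the annotated start. In *Rps26* a C followed by at least 4 pyrimidines lies within 5 bases of that start, and in *Rpl13* none does. *Rpl35*, *Rpl14* and *Rps26* passed, and *Rplp2* and *Rpl13* did not. Whether the kind of start goes with the age difference was not tested.

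Genes around the ribosome were read from lists, with differences on STAR counts, where 21.0% of all genes rose and 19.5% fell in TOM+ cells and 19.4% rose and 16.9% fell in TOM- DC2. Among ribosomal proteins that the choice by symbol leaves out were *Gnb2l1* (Rack1), which rose by 0.49 ± 0.092 (edgeR, padj 0.0010) in young TOM+ and 0.38 (padj 0.0059) in TOM- cells, and *Fau*, a fusion with a ubiquitin-like protein, which did not pass (0.14, padj 0.66). Of 29 initiation factors tested 17 rose and 1 fell in TOM+ cells and 14 rose and 2 fell in TOM- DC2, led by *Eif1ax* at 0.86 and *Eif3i* at 0.69, with *Eif4a2*, a helicase of the cap complex, at -0.66. Of 8 elongation genes 4 rose and 1 fell in both: *Eef1e1* at 0.71, *Eef1d* at 0.59 and *Eif5a* at 0.57 in TOM+ cells, and *Eef2k*, the kinase that inhibits *Eef2*, at -1.46. *Eef1a1* and *Eef2*, both TOP mRNAs, had 0.08 (padj 0.46) and 0.02 (padj 0.89).

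Against the same 21.0% higher and 19.5% lower over all genes, of 9 other genes with TOP mRNAs 6 rose and 0 fell in TOM+ cells and 5 rose in TOM- DC2, led by *Vim* at 1.08, *Hnrnpa1* at 0.93 and *Ipo5* at 0.80, while *Tpt1* had -0.08 (padj 0.65). Of 11 hosts of small nucleolar RNAs 2 rose (18.2%) and 1 fell (9.09%) in both comparisons, close to or under the shares of all genes, with *Snhg4* at 0.82, *Snhg5* at 0.63 and *Gas5*, which is itself a TOP transcript, at -0.54 in TOM+ cells. Of 4 genes for factors at the nascent chain or ribosome surface, *Serbp1* at 0.34 and *Btf3* at 0.24 rose in TOM+ cells, and 1 of 4 rose in TOM- DC2. Of 21 regulators of mTORC1 and TOP translation 8 rose (38.1%) and 5 fell (23.8%) in TOM+ cells and 5 and 2 in TOM- DC2. Among them in TOM+ cells were *Pdcd4*, an inhibitor of translation initiation, at -1.49, and *Eif4ebp1* and *Eif4ebp2*, which hold back cap-dependent initiation, at 0.74 and 0.83. Between the young groups 0 genes of any of these lists passed.

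The age difference in the members stood beside a larger one in cell cycle genes. Of 20 such genes 19 rose and 0 fell in each comparison with adults, with medians of 1.35 and 1.12, and their summed level was 2785 to 2910 TPM in young TOM+, 2540 to 2629 in young TOM- and 1113 to 1351 in adult libraries. The part of cycling cells in the members' difference was not tested.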

How the data were processed

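mRNA of sorted splenic dendritic cells was sequenced with 50-base single-end reads from SMART-seq v4 libraries, which do not mark strand. The authors aligned reads with STAR to mm10 and ran RSEM. The deposited files hold raw STAR counts per gene, of which the unstranded column was used here, and RSEM estimated counts and TPM. Versions are not given in the sources used here. STAR counts only reads with 1 place in the genome, and 10.4% to 13.4% of reads had several. The lines of the count files that name no gene stayed out of library sizes, and reads in no gene made up 8.84% to 17.1%. Members and lists were chosen with earlier results of these data known.

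STAR counts of 14452 genes with an average of at least 1 over all 9 libraries were fitted with edgeR 4.0.16 in R 4.3.3 (TMM, quasi-likelihood test, Benjamini-Hochberg adjustment, threshold 0.05), with 1 fit for the 3 comparisons, so both comparisons with adults share the adult libraries. RSEM estimated counts were rounded and fitted likewise over 14532 genes. Alternatives were DESeq2 1.42.0, limma 3.58.1 on log2(TPM + 1) and log2(TPM + 0.1), other size factors, other count minimums, only the groups compared, a trend over transcript length removed, each library left out, and the library number as a block. Those on RSEM counts were chosen after seeing the data. Both young groups carry the same library numbers, and deviations of same-numbered young libraries correlated at 0.746, 0.501 and 0.517. The labels do not say what the number marks, so a shared mouse pool and a shared preparation cannot be told apart.

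Named members were the 5 highest and 5 lowest log2FC among those that passed with an average count of at least 50 and groups without overlap, the stalk genes, the paralogs, the 3 highest and 3 lowest in TPM and the 5 lowest STAR shares. Others are named as chosen after their values were seen. *Rpl8*, *Rps12*, *Rpl13a*, *Rpl14*, *Rpl28*, *Rpl31* and *Rps4x* are of this kind, as are *Eef1a1*, *Eef2* and *Tpt1*. Some genes that the rule names are not reported here. Precision is limited by 12783252 to 22809401 counted reads per library and 3 libraries per group. Scripts were tested on simulated data.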

Additional observations from a re-analysis of the deposited data

How the results depend on the processing

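Between the young groups the number of members that passed was 0 under every alternative run on either count. The summed share of the members kept its order under the share of STAR counts, RSEM counts and TPM, with young TOM+ over adult at 1.31, 1.29 and 1.27. All of these are shares of library totals without TMM, so they cannot show whether the order holds under that scaling. In young TOM+ against adult cells the 18 higher members became 46 with library sizes alone, 40 on RSEM counts, 70 with limma on TPM under either pseudocount and 10 with the length trend removed. All genes shifted the same way under limma, to 4074 higher and 1973 lower with a pseudocount of 1 against 3039 and 2822. The 2 lower members became 1 with DESeq2, with library sizes alone, with no filter on low counts and with only the groups compared, 0 on RSEM counts and with limma, and 4 with the length trend removed. With that trend removed all genes gave 2852 higher and 3001 lower. The median of 0.20 became 0.40 with library sizes alone, 0.41 with limma and 0.12 with the length trend removed, where that on RSEM counts went from 0.24 to 0.14. In young TOM- against adult cells the 13 higher members became 43, 29, 69 and 5 under the same 4 settings and 8 with only the groups compared. The 1 lower member became 0 with library sizes alone, on RSEM counts and with limma, and 6 with the length trend removed. All genes gave 2120 higher and 3250 lower with that trend removed. The median of 0.16 became 0.38 with library sizes alone, 0.39 with limma and -0.011 with the length trend removed. On RSEM counts library sizes alone gave 69 higher members and a median of 0.44 in TOM+ cells and 68 and 0.42 in the TOM- comparison. All genes then gave 4567 higher and 1925 lower in the first and 4743 and 1560 in the second. Removing the length trend gave 20 higher and 3 lower members in the first and 8 higher and 7 lower, with a median of 0.028, in the second, where DESeq2 gave 1 lower. With that trend removed all genes gave 2851 higher and 3023 lower in the first and 2107 and 3264 in the second. *Rpl10* turned from lower to higher on RSEM counts (0.30 and 0.27 in the 2 comparisons) and with limma (0.46 in both), as did *Rps12* in TOM+ cells (0.36 and 0.52). The cause was not tested beyond the counted shares given above.

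Young and adult libraries share only the numbers 91 and 92, whose deviations correlated at -0.003 to 0.157, and the labels do not say what the number marks, so pairing of young with adult libraries is not established. With that number as a replicate block 21 members were higher and 3 lower in the TOM- comparison on STAR counts, and on RSEM counts 45 higher and 2 lower there and 3 lower in the TOM+ comparison. All genes under the block gave 3412 higher and 3129 lower, 3309 and 3287, and 3466 and 3477 in the same order. The block changed no call of a member between the young groups, which carry the same numbers. Leaving out each library in turn gave 11 to 18 higher and 1 to 2 lower members with medians of 0.15 to 0.25 in TOM+ cells and 6 to 18 higher and 0 to 1 lower with 0.12 to 0.21 in the TOM- comparison. On RSEM counts the ranges were 22 to 43 (26 without young TOM+ replicate 3 and 24 without adult replicate 3) and 0 to 2 with 0.19 to 0.28, and 11 to 35 and 0 to 2 with 0.13 to 0.25. Over all genes the ranges on STAR counts were 2423 to 3109 higher and 2322 to 2885 lower in TOM+ cells. In the TOM- comparison they were 2196 to 2866 and 1992 to 2509. On RSEM counts they were 2311 to 2959 and 2416 to 3044, then 2194 to 2676 and 2089 to 2690. Between the young groups the medians of the members ran from -0.05 to 0.07 on STAR and from -0.03 to 0.08 on RSEM counts. Depth limits members that STAR barely counts: their median SE was 0.25 under a counted share of 10% and 0.093 over 50%.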
